A study of Mus musculus with 13 samples.

Results

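The genes described here code for the receptor machinery with which proximal tubule cells take filtered protein back from the urine. They are 7 of the 22180 genes measured: Lrp2, Cubn, Amn, Dab2, Folr1, Clcn5 and Lrpap1. They were chosen by name, as probe sets carrying 1 of these symbols and no other, and each of them had 1 such probe set on the array. Lrp2 codes for megalin, a giant receptor of the LDL receptor family, and Cubn codes for cubilin, a peripheral membrane protein that binds albumin, transferrin and the complex of intrinsic factor with vitamin B12. Cubilin has no membrane span of its own and is held at the apical surface by amnionless, the product of Amn. Ligand-loaded receptors gather in clathrin-coated pits with the help of the adaptor Dab2, release their cargo in acidified endosomes and return to the brush border, while the cargo goes on to lysosomes.

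The samples were S1 segments, the first stretch of the proximal tubule, from male C57BL/6J mice, measured on 13 Affymetrix arrays as log2 expression values. The 5 LPS/LPS (preconditioned) samples came from mice given 0.25 mg/kg of lipopolysaccharide (LPS, a bacterial endotoxin, serotype 0111:B4) and, 24 hours later, 5 mg/kg, with tissue taken 24 hours after the second dose. The 4 LPS samples came from mice given 5 mg/kg once, into the peritoneum, 24 hours before. The 4 control samples came from mice given the same volume of saline. The sample labels write the doses as 5 µg and 100 µg. No group carries a transgene or a deletion in the labels. Nothing says whether the samples of a group came from separate animals, so p-values cover the spread between samples alone, which may be technical. How the segments were isolated is not given in the sources used here.

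Olfactory receptor genes, taken here as mostly silent in kidney, served to judge signal: 95% of the 1105 measured had means below a log2 level of 4.77, called the background reference here. Slc34a1, the main phosphate carrier of the proximal tubule, averaged 9.23 ± 0.73 in LPS/LPS samples, 10.04 ± 0.64 in LPS samples and 11.23 ± 0.23 in control samples (SD, n = 5, 4 and 4). Of 18 measured S1 and S2 segment markers, 9 had a mean above the reference, while Slc5a2, the glucose carrier that marks S1, lay below it in every group. Podocyte, endothelial and neutrophil lists had 0 members above it (of 5, 8 and 8 measured), macrophages and monocytes 1 of 13, the segments from the loop to the collecting duct 2 of 12, the S3 segment 2 of 6, lymphocytes 1 of 8, and fibroblasts and mural cells 2 of 8. LPS replicate 3 stood apart. Its mean over the 12 markers of these later nephron segments was 5.36, against 4.04 to 4.31 on the other arrays, and Umod, the thick limb protein uromodulin, stood at 8.36. It also had the highest S1 and S2 marker mean, 6.01, so the main results that include it are given with and without it. Control replicate 1 had the next highest values of both, with Umod at 6.77 and an S1 and S2 marker mean of 5.81. The arrays fell into 7 with a wide and 6 with a narrow spread of log2 values (split at an SD of 1.328), and within-class values are given where they bear on a result.

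Megalin and cubilin, the receptors themselves, gave the widest spread between arrays. The residual SD of Lrp2 was 1.01 and that of Cubn 0.95 on the log2 scale, above those of 98.6% and 98.3% of all genes. Their promoters are shown because the levels of Lrp2 and Cubn varied together from array to array. The sequences are RefSeq's on GRCm38.p6, from 250 bases before to 50 after the start of the gene, 5′ to 3′ on the gene's own strand, and 6 of the 7 genes were matched in that table. Capitals mark motif matches.
Lrp2, chr2:69585980-69586279, minus strand: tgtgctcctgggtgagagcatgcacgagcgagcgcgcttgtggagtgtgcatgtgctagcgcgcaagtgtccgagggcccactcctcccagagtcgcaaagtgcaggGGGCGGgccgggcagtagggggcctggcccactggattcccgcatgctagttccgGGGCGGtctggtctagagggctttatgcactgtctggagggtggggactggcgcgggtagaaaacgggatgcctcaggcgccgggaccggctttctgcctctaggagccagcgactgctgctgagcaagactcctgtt
Cubn, chr2:13491827-13492126, minus strand: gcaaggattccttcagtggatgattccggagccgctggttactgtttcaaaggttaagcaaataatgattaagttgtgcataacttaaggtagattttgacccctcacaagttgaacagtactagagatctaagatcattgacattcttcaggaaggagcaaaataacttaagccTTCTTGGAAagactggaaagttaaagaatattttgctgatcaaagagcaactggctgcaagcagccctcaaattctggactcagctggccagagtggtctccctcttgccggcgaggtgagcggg

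The megalin promoter was rich in G and C (65.0%, with 20 CpG dinucleotides) and held 2 GC boxes, GGGCGG, whose first bases lay at -143 and -88 from the start. The cubilin promoter had 44.3% G and C, 5 CpG dinucleotides and 0 GC boxes, and held 1 STAT palindrome, TTCNNNGAA, at -75. The median over 32851 RefSeq promoters of this length was 52.7% G and C. A GC box on either strand was present in 35.7% of those promoters and the STAT palindrome in 8.3%. The other motifs searched were TATAAA, the TATA box (13.6% of promoters), GTTAAT, a single HNF1 arm that overlaps the HNF1 palindrome (7.1%), the HNF1 palindrome itself (0.00913%), CAAAGTCCA, an HNF4 site (0.475%), TCACGTG, the E-box of the lysosomal CLEAR element (3.77%), and the NF-kappaB core (0.155%), all read on both strands. 0 of these 6 had a match in either window. A match in these letters is a description of the sequence alone.

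Megalin had the largest difference of the 7 genes between preconditioned and saline-treated mice. Lrp2 read 4.70, 3.98, 3.90, 3.57 and 4.42 in the 5 LPS/LPS samples. In the 4 LPS samples it read 3.95, 4.70, 7.53 and 5.95, and in the 4 control samples 6.57, 5.30, 4.87 and 4.86. Every LPS/LPS sample lay below every control sample, and 4 of 4 control samples but 0 of 5 LPS/LPS samples stood above the background reference. The LPS samples spread over both ranges. Lrp2 averaged 4.11 ± 0.45 in LPS/LPS samples, 5.53 ± 1.57 in LPS samples and 5.40 ± 0.81 in control samples (SD). The LPS/LPS minus control difference was -1.29 on the log2 scale (SE 0.58, 95% interval -2.52 to -0.05), which is 2.44-fold lower. It did not pass limma's test over all genes (adjusted p = 0.987, unadjusted p = 0.0425). The exact two-sided permutation test over samples gave p = 0.0159, the smallest that 5 against 4 allows, unadjusted for the 21 comparisons made over these genes. In bulk samples, fewer cells of a type and less RNA per cell cannot be told apart.

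The calls over the whole array set the scale for these counts. At an adjusted p under 0.05, 0.00902% of all genes were called between LPS/LPS and control samples and 0 of the 7 endocytosis genes. At an unadjusted p under 0.05, 2.07% of all genes were lower and so was 1 of the 7, Lrp2. Non-overlapping lower levels were found for 0.699% of all genes and for the same 1 of 7. All 7 had a negative LPS/LPS minus control difference, against 44.2% of all genes, and the 7 were read on the same arrays. Their median was -0.44, beside 0.03 over all genes. Without control replicate 1, which had the highest Lrp2 and Umod levels of its group, the Lrp2 difference was -0.90 (limma, adjusted p = 0.998). The wide arrays alone gave -1.16 and the narrow ones -1.27.

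**Figure D1:**
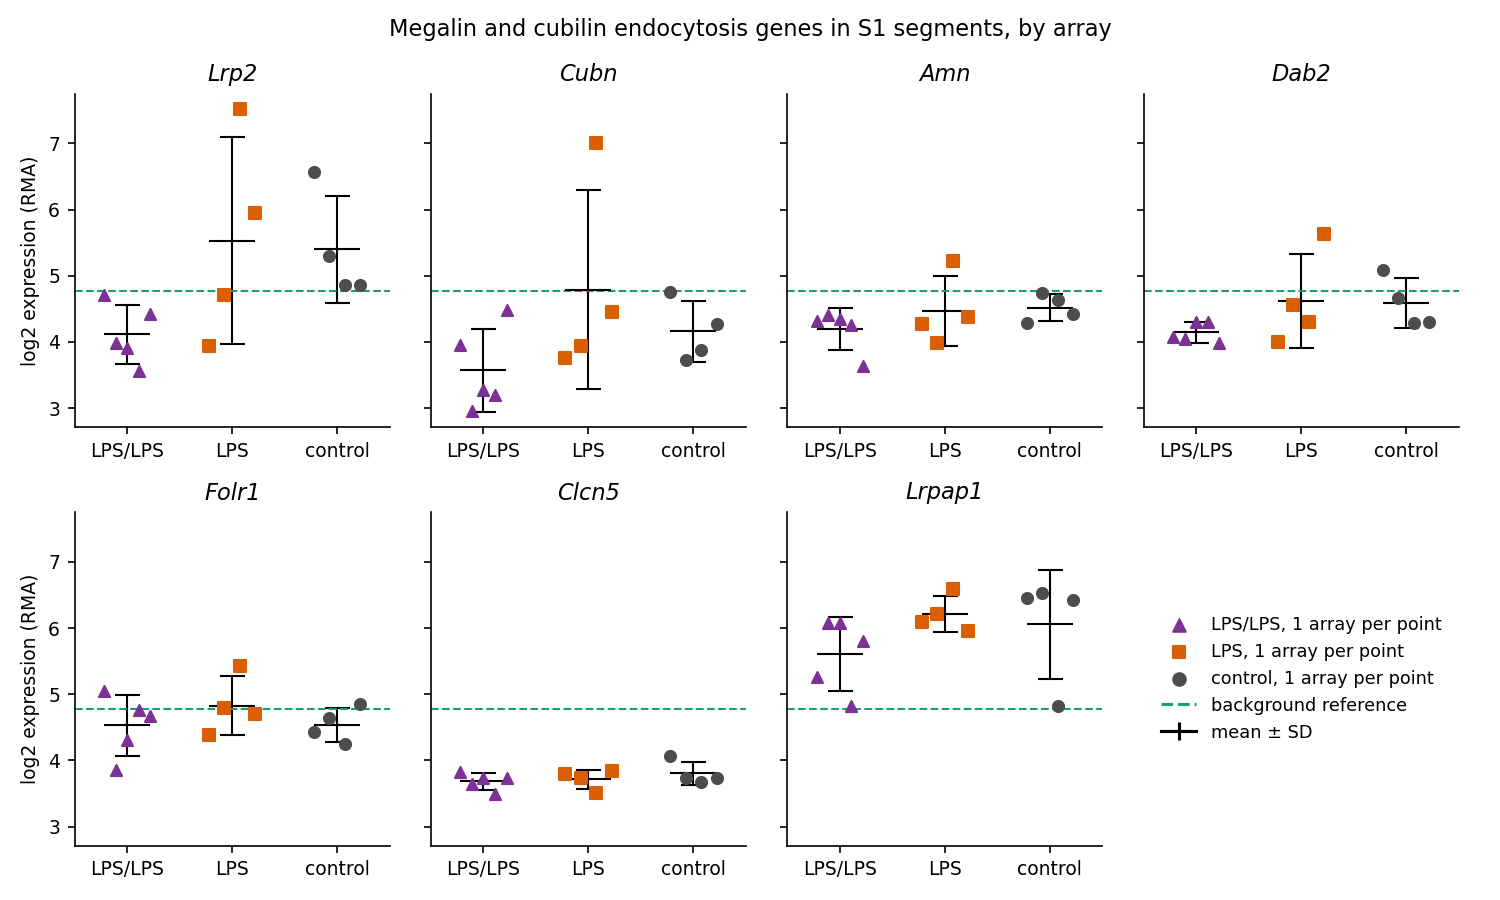
Log2 expression of the 7 endocytosis genes on each array, by group (LPS/LPS, LPS, control), with the group mean and SD and the background reference drawn as a line. All 5 LPS/LPS samples lie below the 4 control samples for Lrp2, between 3.57 and 4.70, and LPS replicate 3 is the highest array for Lrp2 and Cubn.

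Lrp2 moved with the level of proximal tubule markers on the arrays. The mean of the 18 S1 and S2 markers ran from 4.61 to 5.21 in LPS/LPS samples, from 4.76 to 6.01 in LPS samples and from 5.04 to 5.81 in control samples. Of these markers, 17 of 18 had negative LPS/LPS minus control differences, against 44.2% of all genes, with a median of -0.40. At an unadjusted limma p under 0.05, 8 of the 18 were lower, against 2.07% of all genes. At an adjusted p under 0.05, 0 were called, against 0.00902% of all genes. Over the 13 arrays, Lrp2 followed this mean with Pearson's r = 0.93 (permutation p = 1e-05, the smallest that the resampling can give, and 7e-05 adjusted over 7 genes) and Spearman's rho = 0.93 (permutation p = 3e-05, adjusted 0.00021). The r was 0.88 without the 2 arrays farthest from the median, 0.89 for deviations from the group means, 0.91 in the wide arrays and 0.94 in the narrow ones. Cubn followed it with r = 0.80 (permutation p = 0.00017, adjusted 0.000595) and rho = 0.77, and r was 0.71 without the 2 farthest arrays. Within the wide arrays its r was 0.72 (exact permutation p = 0.0456) and within the narrow arrays 0.58 (exact permutation p = 0.224). The other 5 genes did not pass after adjustment.

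Taken relative to the marker mean of the same array, Lrp2 stood at -0.74 ± 0.25 in LPS/LPS samples and -0.07 ± 0.62 in control samples. That is a difference of -0.67 (exact permutation p = 0.0635), about the size of 1 control SD, and the ranges overlapped. The difference from LPS samples on the same relative scale was -0.87 (exact permutation p = 0.190). This relative scale was added after the data were seen. It takes off 1 log2 unit of Lrp2 per unit of the marker mean, a slope that was not tested. Over the arrays Lrp2 ran from 3.57 to 7.53, and the marker mean from 4.61 to 6.01. The scale therefore cannot tell whether Lrp2 differed between groups beyond the markers.

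**Figure D2:**
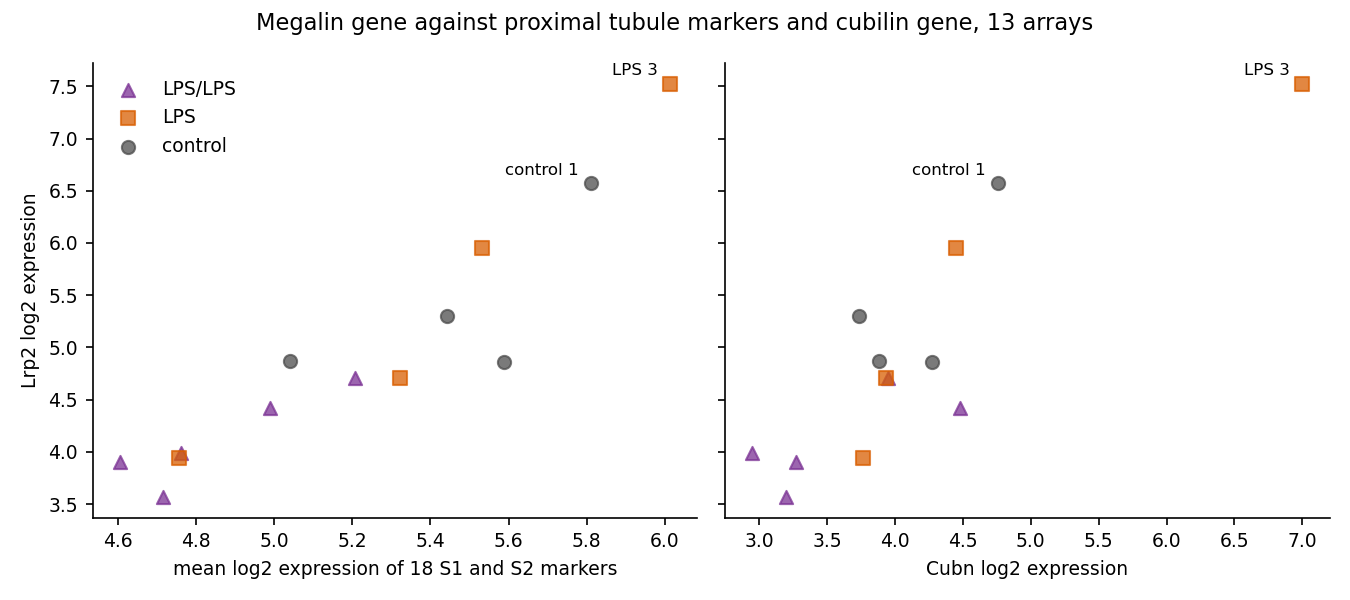
Lrp2 log2 expression plotted against the mean log2 level of 18 S1 and S2 markers and against Cubn log2 expression, 1 point per array, with symbols for LPS/LPS, LPS and control samples. Arrays with more S1 and S2 marker signal have more Lrp2 (r = 0.93), and LPS replicate 3 lies at the upper right of both panels.

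Cubilin read 3.95, 2.95, 3.27, 3.19 and 4.48 in LPS/LPS samples. It read 3.76, 3.94, 7.0 and 4.45 in LPS samples and 4.76, 3.73, 3.88 and 4.27 in control samples. Only LPS replicate 3 exceeded the background reference. The groups overlapped. Cubn averaged 3.57 ± 0.63 in LPS/LPS samples, 4.79 ± 1.50 in LPS samples and 4.16 ± 0.46 in control samples (SD). The LPS/LPS minus control difference was -0.59 (SE 0.54, limma adjusted p = 0.987).

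Against the single dose, the megalin and cubilin differences depended on which LPS sample was left out. The LPS/LPS minus LPS difference was -1.42 for Lrp2 (SE 0.58, 95% interval -2.65 to -0.18, limma adjusted p = 0.504) and -1.22 for Cubn (SE 0.54, interval -2.39 to -0.05, adjusted p = 0.557). Without LPS replicate 3 they were nearer 0, at -0.75 (adjusted p = 0.848) and -0.48 (adjusted p = 0.882). Without LPS replicate 1, the lowest LPS sample for both genes, they were -1.95 and -1.56. Between LPS/LPS and LPS samples 0.0631% of all genes were called at an adjusted p under 0.05 and 0 of the 7. At an unadjusted p under 0.05, 4.49% of all genes and 2 of the 7 were lower, and 40.7% of all genes and 7 of 7 had negative differences. Both comparisons share the LPS/LPS samples. The wide arrays gave -1.50 for Lrp2, and the narrow arrays, with 1 LPS sample, -0.13.

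Against saline, a single dose gave no common direction. The LPS minus control difference of Lrp2 was 0.13 (SE 0.61, 95% interval -1.17 to 1.43) and that of Cubn 0.62 (SE 0.57, interval -0.61 to 1.85), with limma adjusted p of 0.978 and 0.877. Without LPS replicate 3 both were negative, -0.53 and -0.11. Of all genes, 0% were called at an adjusted p under 0.05 and so were 0 of the 7. At an unadjusted p under 0.05, 6.43% of all genes and 0 of the 7 passed. Negative differences were found for 52.9% of all genes and 2 of the 7.

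Which of the 7 genes correlated over arrays depended on LPS replicate 3. With all 13 arrays, Lrp2 and Cubn were the 1 pair past adjustment, and without that array there were 4 pairs. Of the 21 pairs over all arrays, 18 had a positive r (median 0.28, range -0.35 to 0.88). For Lrp2 and Cubn, r was 0.88 (permutation p = 8e-05, adjusted 0.00168) and rho 0.72 (permutation p = 0.00682, adjusted 0.143). Without the 2 arrays farthest from the median, control replicate 1 and LPS replicate 3, r was 0.69 (permutation p = 0.0184, adjusted 0.129). The wide arrays gave 0.85 and the narrow ones 0.66. Without LPS replicate 3 alone, r was 0.78 for Lrp2 with Cubn, 0.79 for Lrp2 with Dab2, 0.79 for Lrp2 with Clcn5 and 0.74 for Cubn with Clcn5, each with an adjusted permutation p of 0.0207. The rho values of these 4 pairs ran from 0.56 to 0.65 and did not pass after adjustment, and Clcn5 lay below the background reference on every array. Genes like Lrp2 and Cubn were sought above the background reference, leaving out predicted genes, clone names, small RNAs, and olfactory and vomeronasal receptors. That left 1746 genes for Lrp2 and 1747 for Cubn. Nearest to Lrp2 over 13 arrays was Atp1b1, the sodium pump's beta subunit (r = 0.98). Cd81, a tetraspanin (0.96), and Lamp1, a lysosomal membrane protein (0.94), came next. The 3 values were 0.96, 0.94 and 0.89 without LPS replicate 3. For Cubn the nearest were Atp2a2, the calcium pump of the endoplasmic reticulum (0.92), Zfp706 (0.90) and Hgd, an enzyme of tyrosine breakdown (0.89). Without LPS replicate 3 the Cubn values were 0.78, 0.80 and 0.60.

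Amnionless and the adaptor, the partners that hold cubilin and gather receptors into pits, sat mostly below the background reference. Amn read 4.32, 4.41, 4.35, 4.26 and 3.64 in LPS/LPS samples, 4.27, 3.99, 5.22 and 4.38 in LPS samples, and 4.28, 4.73, 4.63 and 4.42 in control samples. Its highest value was again LPS replicate 3. The LPS/LPS minus control difference was -0.32 (limma adjusted p = 0.987) and the groups overlapped. Dab2 read 4.07, 4.05, 4.30, 4.30 and 3.98 in LPS/LPS samples, 3.99, 4.55, 4.30 and 5.63 in LPS samples, and 5.09, 4.66, 4.28 and 4.30 in control samples. The Dab2 differences were -0.44 for LPS/LPS minus control (exact permutation p = 0.0952) and -0.48 for LPS/LPS minus LPS (exact permutation p = 0.206), or -0.58 without LPS replicate 3. The highest Dab2 value of all was that of LPS replicate 4, without which the LPS/LPS minus LPS difference was -0.14.

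Lrpap1, the chaperone that keeps megalin free of ligand on its way to the surface, was the only one of the 7 above the background reference on all 13 arrays. It read 5.26, 6.08, 6.08, 4.82 and 5.81 in LPS/LPS samples. It read 6.09, 6.21, 6.6 and 5.95 in LPS samples and 6.46, 6.54, 4.82 and 6.42 in control samples. Control replicate 3 was as low as the lowest LPS/LPS sample, and the remaining control samples lay above all 5. The LPS/LPS minus control difference was -0.45 (SE 0.35, limma adjusted p = 0.987). It was -0.86 without control replicate 3 (adjusted p = 0.998), -0.90 in the wide arrays and -0.02 in the narrow ones. Relative to the S1 and S2 marker mean it was 0.17 (exact permutation p = 0.730), so its sign turned.

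Folr1, the folate receptor, read 5.05, 3.86, 4.30, 4.76 and 4.68 in LPS/LPS samples, 4.38, 4.80, 5.43 and 4.69 in LPS samples, and 4.43, 4.64, 4.25 and 4.85 in control samples. The groups overlapped throughout, and the LPS/LPS minus control difference was -0.01 (95% interval -0.54 to 0.52). Clcn5, the endosomal chloride and proton exchanger whose loss causes Dent disease in people, stayed below the reference on every array. It ran from 3.49 to 3.82 in LPS/LPS samples, from 3.51 to 3.83 in LPS samples and from 3.68 to 4.06 in control samples. Its residual SD, 0.147, was below that of most genes (percentile 6.14).

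**Figure D3:**
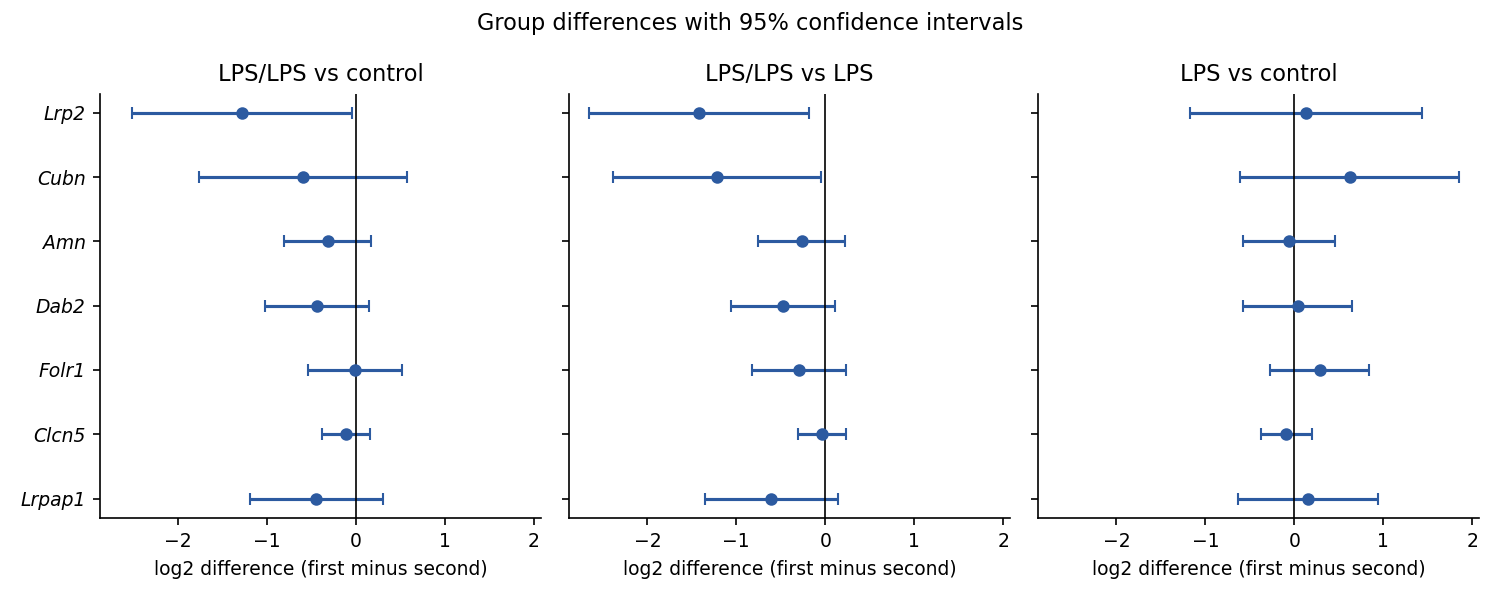
Log2 differences of the 7 endocytosis genes with 95% intervals for LPS/LPS minus control, LPS/LPS minus LPS and LPS minus control. The interval of Lrp2 for LPS/LPS minus control, -2.52 to -0.05, lies below 0, and no gene passed the adjusted threshold.

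The rest of the uptake route was read from 6 further lists. Of their 104 measured genes, 0 passed limma's adjusted threshold in any of the 3 comparisons. At an unadjusted p under 0.05, 2 were higher and 7 lower in LPS/LPS than in control samples, against 2.62% and 2.07% of all genes. Between LPS/LPS and LPS samples 1 was higher and 20 were lower, against 4.13% and 4.49% of all genes. Between LPS and control samples 7 were higher and 3 lower, against 3.49% and 2.95%. Between LPS/LPS and LPS samples, the lysosomal list stood lowest. Of its 13 genes, 11 had negative differences and 8 were lower at an unadjusted p under 0.05, with a median of -0.92. Over all genes 40.7% were negative, 4.49% were lower at that threshold and the median was 0.05. Between LPS/LPS and control samples 10 of the 13 were negative, against 44.2% of all genes. The median there was -0.30 and 0 were lower at that threshold. Between LPS and control samples 3 of the 13 were negative, against 52.9% of all genes. The median there was 0.49 and 3 were higher at that threshold. Without LPS replicate 3 again 3 of the 13 were negative, but the median was 0.11 and 1 was higher. Cathepsin L, Ctsl, a lysosomal protease, averaged 5.50 ± 0.69 in LPS/LPS samples, 7.04 ± 0.65 in LPS samples and 5.80 ± 0.73 in control samples (SD). Legumain, Lgmn, which cleaves after asparagine, averaged 4.64 ± 0.36 in LPS/LPS samples, 5.98 ± 0.80 in LPS samples and 5.35 ± 0.56 in control samples. Their LPS/LPS minus LPS differences were -1.53 and -1.35, and without LPS replicate 3 they were -1.74 and -1.18. Between LPS/LPS and LPS samples without LPS replicate 3, 7 of 13 were lower at an unadjusted p under 0.05. The median was then -0.56 and the background was 3.49% of all genes. The S1 and S2 markers moved alongside between LPS/LPS and LPS samples, with 17 of 18 negative and a median of -0.48. At an unadjusted limma p under 0.05, 5 of these markers were lower, against 4.49% of all genes. The part of the S1 and S2 markers in the lysosomal result was not tested.

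Rab7, the late endosome GTPase, was the endosomal gene with the lowest p in the comparisons of LPS/LPS samples with LPS and with control. It read 4.98, 4.54, 4.81, 4.31 and 4.71 in LPS/LPS samples. It read 5.16, 7.06, 6.69 and 6.54 in LPS samples and 5.97, 6.40, 6.54 and 4.82 in control samples. All LPS/LPS samples lay below all LPS samples (1.3% of all genes did), but control replicate 4 fell inside their range. The LPS/LPS differences were -1.69 from LPS (limma adjusted p = 0.151) and -1.26 from control (adjusted p = 0.949). The difference from LPS was -1.58 without LPS replicate 3 (adjusted p = 0.409). For LPS minus control the lowest p of that list was that of Rab4a, which lay below the reference. Its difference was -0.86 (limma adjusted p = 0.590), or -0.97 without LPS replicate 3, and that of Rab7 was 0.43 (adjusted p = 0.877). Among carriers and vitamin handlers, ferritin heavy chain, Fth1, was 8.21 ± 0.73 in LPS/LPS samples and 10.05 ± 0.58 in LPS samples (SD), a difference of -1.84 (limma adjusted p = 0.0919). It was -1.67 without LPS replicate 3 (adjusted p = 0.262). Transcobalamin 2, Tcn2, which carries vitamin B12 in blood, was 4.92 ± 0.66 in LPS/LPS samples and 6.07 ± 0.38 in control samples (difference -1.15, limma adjusted p = 0.949).

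Beta-2 microglobulin, B2m, a small filtered protein and the light chain of MHC class I, showed the largest difference of the lists after a single dose. It read 8.39, 10.14, 10.36 and 10.16 in LPS samples, and 7.24, 8.24, 5.92 and 6.05 in control samples. The groups did not overlap (1.55% of all genes were higher without overlap), and the difference was 2.90 (limma adjusted p = 0.338), or 2.70 without LPS replicate 3 (adjusted p = 0.580). In the clathrin list, 3 of 18 genes had negative LPS minus control differences, against 52.9% of all genes. The list median was 0.25 with and without LPS replicate 3, beside -0.02 over all genes. Between LPS/LPS and LPS samples 14 of the 18 were negative, against 40.7% of all genes, with a median of -0.20. At an unadjusted limma p under 0.05, 5 were lower there (4.49% of all genes), or 2 without LPS replicate 3 (3.49%). Between LPS/LPS and control samples 7 of the 18 were negative, against 44.2% of all genes. Ap2m1, an AP-2 adaptor subunit, was 4.42 ± 0.30 in LPS samples and 3.84 ± 0.14 in control samples (SD), below the reference in both. Among LDL receptor relatives and sorting receptors, the lead was Fcgrt, the neonatal Fc receptor that salvages albumin and IgG. It averaged 4.69 ± 0.30 in LPS/LPS samples, 4.65 ± 0.39 in LPS samples and 5.32 ± 0.29 in control samples (SD). The differences from control were -0.63 and -0.67, with limma adjusted p of 0.987 and 0.590, and the second was -0.62 without LPS replicate 3. The list of endosomal acidification and ion exchange, mostly proton pump genes, had 1 of 21 genes above the reference.

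**Figure D4:**
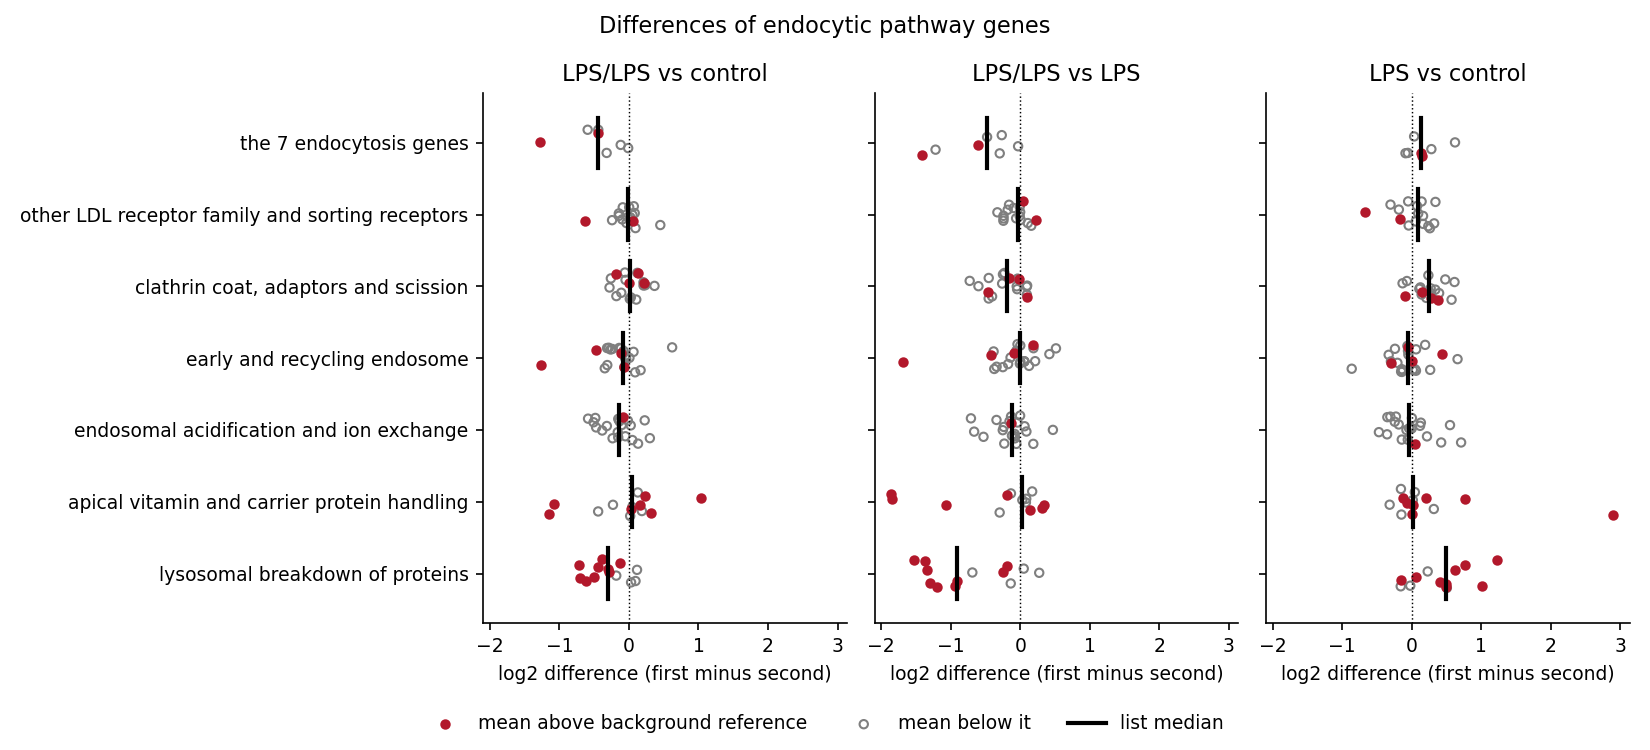
Log2 differences of the genes of 7 lists in the LPS/LPS minus control, LPS/LPS minus LPS and LPS minus control comparisons, 1 point per gene, with bars for list medians and filled points for genes whose mean is above the background reference. In the LPS/LPS minus LPS panel 11 of the 13 genes of the lysosomal list lie to the left of 0, with a list median of -0.92.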

How the data were processed

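RNA was extracted with the PicoPure kit and 2 ng per sample was labelled by the Affymetrix WT Pico method, per the labels' protocols. Each probe set has 1 log2 value per array in the table the authors deposited. RMA and Partek 6.6 are named in the submitters' processing notes. How background was handled, and which annotation and build were used, is not given in the sources used here. Any background signal left in the values compresses differences of dim genes. The depth of an array is not a count, so the number of arrays limits the precision.

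The table held 41345 probe sets. Probe sets with 1 gene symbol (23521) were kept, and the one with the highest mean was used per gene, which left 22180 genes. All 13 arrays entered 1 limma fit (limma 3.58.1, R 4.3.3) with no covariates, Benjamini-Hochberg adjustment over all genes and a threshold of 0.05. Exact two-sided permutation tests over samples were run in R. Correlations and their permutation p were run in Python 3.11.15 (numpy 2.4.6, scipy 1.17.1). On simulated data for LPS/LPS vs control with 22180 genes, 7.5% of genes changed by 0.5 on the log2 scale were called, 70% at 1, 87.5% at 1.5 and 97.5% at 2. These shares are given by the size of the change and not by the spread of a gene. The residual SDs of Lrp2 and Cubn, 1.01 and 0.95, were above those of 98.6% and 98.3% of all genes. The shares therefore do not tell how often a change in Lrp2 or Cubn would be called. They also come from 40 changed genes at each size, and the adjusted threshold is easier to pass when more genes change. In the data themselves 2 genes were called for LPS/LPS vs control. Slc34a1, with a difference of -2.01, was not called (limma adjusted p = 0.197).

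The members, lists and tests were chosen with earlier results of these data known. Named genes are the 7 members, list members with the lowest p in a comparison, and the 3 genes nearest to Lrp2 and Cubn. Atp6v1c1, Ap2s1, Atp6v1g1, Scarb2, Myo6 and Atp6v1e1 also had the lowest p of their list in a comparison. Their values are not given. The scale relative to S1 and S2 markers, and the correlations and lists without LPS replicate 3, were chosen after seeing the data. Replicate numbers were not used to pair the samples in the main fit. Their check and the alternatives stand in the closing section.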

Additional observations from a re-analysis of the deposited data

Results flagged for a closer look

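3 of the 21 sets of array values (7 genes in 3 groups) held a sample far from the rest of its group, by the gap to its nearest neighbour over the range of the group. Chance flags about 1 in 20 groups. Amn in LPS/LPS replicate 5 was 3.64, the lowest of the 5 LPS/LPS samples. Clcn5 in control replicate 1 was 4.06, the highest of the 4 control samples. Lrpap1 in control replicate 3 was 4.82, the lowest of the 4 control samples.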

How the results depend on the processing

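Over 495 recomputed differences of the 7 genes, 0 passed the adjusted threshold (lowest adjusted p 0.176), 460 kept their direction and 35 turned it. Lrp2 kept its direction in all 25 alternatives of LPS/LPS minus control (-1.47 to -0.67) and of LPS/LPS minus LPS (-1.95 to -0.13). With the array class as a block, the differences that turned were -0.13 for Lrp2 and -0.016 for Dab2 (LPS minus control), 0.033 for Folr1 (LPS/LPS minus control) and 0.0055 for Clcn5 (LPS/LPS minus LPS). Within the wide arrays these were 0.18 for Amn and -0.18 for Lrpap1 (LPS minus control), 0.22 for Folr1 (LPS/LPS minus control) and 0.086 for Clcn5 (LPS/LPS minus LPS). Within the narrow arrays they were -1.14 for Lrp2, -0.045 for Cubn, -0.48 for Dab2, -0.068 for Folr1 and 0.079 for Clcn5 (LPS minus control), and 0.070 for Amn and 0.23 for Dab2 (LPS/LPS minus LPS). Array weights gave -0.15 for Lrp2 (LPS minus control), and the marker-relative scale 0.17 for Lrpap1 (LPS/LPS minus control).

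Leaving out 1 sample at a time, LPS minus control ran from -0.31 to 0.10 for Amn, -0.11 to 0.97 for Cubn, -0.30 to 0.25 for Dab2, -0.53 to 0.66 for Lrp2 and -0.26 to 0.32 for Lrpap1. LPS/LPS minus control ran from -0.14 to 0.16 for Folr1, and LPS/LPS minus LPS from -0.10 to 0.018 for Clcn5.

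The genes called over the array were 2 for LPS/LPS vs control, 14 for LPS/LPS vs LPS, 0 for LPS vs control (1427 at an unadjusted p under 0.05) and 14 for the F-test. Without 1 sample they ran from 0 to 3, 5 to 96, 0 to 24 and 1 to 39, the high ends of the last 3 without LPS replicate 1. For LPS/LPS vs control, quantile normalization and the array class as a block gave 4 each, median centring 1, and only the 2 groups, all probe sets, no moderation, the wide and the narrow arrays 0 each. For LPS/LPS vs LPS, only the 2 groups gave 2, all probe sets 7, array weights 41, narrow arrays 3, and wide arrays and no moderation 0. For LPS vs control, quantile normalization gave 7, array weights 30, genes above the background reference 3 and narrow arrays 1. The correlated pairs (1 over all arrays) numbered 1 for deviations from the group means, 0 without the 2 farthest arrays and within the wide or the narrow arrays, and 4 without LPS replicate 3, an alternative chosen after seeing the data. Same-numbered samples of different groups correlated at -0.03 on average over 12 pairs (deviations from group means), 3 of them over 0.1. Samples with different numbers correlated at 0.008 on average over 44 pairs, 15 of them over 0.1. This check cannot show whether same-numbered samples were handled together, because other differences between arrays also enter these correlations. The replicate block called 0, 4 and 3 genes for LPS/LPS vs control, LPS/LPS vs LPS and LPS vs control. The causes were not tested.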
